A study of Mus musculus with 9 samples.

Results

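Hashtag 5 cells are thymocytes that carried the antibody barcode Hashtag 5, for which the labels give no genotype. They were set against WT cells, which carried Hashtag 4, and placed beside CD3εI173A cells, which carried Hashtag 6. A barcode was kept when it had at least 500 genes, at most 10% mitochondrial UMIs (unique molecular identifiers, counts of single RNA molecules) and a single hashtag that reached 10 counts and 4 times every other hashtag. This rule gave 8339 Hashtag 5 cells of 25223 single-hashtag cells, among 26990 barcodes in all. There were 2829 in the CD4 single-positive (CD4 SP) gate, 2745 in the CD8 single-positive (CD8 SP) gate and 2765 in the double-positive (DP) gate. WT cells numbered 3109, 3017 and 2516 in the same order, and I173A cells 2664, 2872 and 2706.

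All cells came from the thymus of adult female mice. The labels tie WT mice to Hashtag 4 and mice with the I173A substitution in CD3ε to Hashtag 6. Suspensions were tagged, sorted on surface CD4 and CD8, and run on the 10x Genomics 5′ platform. Each gate had 1 RNA library, 1 T cell receptor (TCR) library and 1 hashtag library. Neither the number of mice behind a hashtag, their exact age nor whether cells of several mice were pooled is given in the sources used here.

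In the thymus, DP cells complete their receptor by joining segments of the α chain, and those whose receptor receives a fitting signal from self peptides become CD4 SP or CD8 SP cells. CD3ε is a chain of the CD3 complex that passes the signal of the TCR into the cell. A hashtag is an antibody against a surface protein of all cells, joined to a short DNA barcode that is read with the cell's RNA and tells pooled samples apart.

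The 3 barcodes that define the groups are printed in lower case, with capitals in Hashtags 4 and 6 at the bases that differ from Hashtag 5, and in Hashtag 5 at the bases that differ from both others.
Hashtag 4 (WT): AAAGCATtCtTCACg
Hashtag 5: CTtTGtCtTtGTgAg
Hashtag 6 (I173A): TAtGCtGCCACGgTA
Each of the other barcodes differed from Hashtag 5 at 12 of 15 bases. In Hashtag 5 cells the median count of the own tag was 147 in CD4 SP, 970 in the CD8 SP gate and 742 in DP, against medians of 3, 15 and 10 for the higher of the other tags. Hashtag 4 in WT cells had medians of 160, 1011 and 575, against 2, 14 and 10 for the higher of the others. Just inside the fold rule, 20 cells had 4 to 5 times as many Hashtag 5 counts as the next tag, and just outside it 22 cells had 3 to 4 times as many. For the filter on genes, 54 Hashtag 5 cells lay just inside it at 500 to 600 genes and 48 just outside at 400 to 500.

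Hashtag 5 cells made up 32.9% of the single-hashtag cells in CD4 SP, 31.8% in the CD8 SP gate and 34.6% in DP. A further 1344 barcodes carried several tags, 1054 of them with Hashtag 5 among these, and were left out as doublets. Doublets of cells with the same tag remain. Between pairs of libraries 97 to 105 cell barcodes recurred, 33 to 37 of them with the same hashtag, and Hashtag 5 in both for 7 to 15. Hashtag 5 groups held 18741849 UMIs in CD4 SP, 20150348 in the CD8 SP gate and 9685492 in DP, and the WT and I173A groups held 8659807 to 22544044. Median UMIs per cell in Hashtag 5 cells were 6135, 5813 and 2681, against 6079, 5704 and 2906.5 in WT cells.

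Coreceptor RNA in Hashtag 5 cells followed the gates. Cd4, the coreceptor for MHC class II, was at 367 CPM (UMIs of the gene per 1000000 UMIs of the group) in CD4 SP, 3.57 in the CD8 SP gate and 705 in DP, and Cd8a, a chain of the coreceptor for MHC class I, at 25.8, 1050 and 2280. In WT cells the same values were 371, 3.99 and 653 for Cd4 and 27.9, 1100 and 2320 for Cd8a, so Cd4 was close to 0 in the CD8 SP gate and high in the others in both groups. Ddx3y, Eif2s3y, Uty and Kdm5d, genes of the Y chromosome, had no UMI in any group, where 3 UMIs would be 0.133 to 0.346 CPM. Xist, the RNA that silences an X chromosome in female cells, was at 729 CPM in Hashtag 5 and 679 in WT cells of CD4 SP, 645 and 629 in the CD8 SP gate, and 1080 and 1030 in DP. Nnt, a mitochondrial gene deleted in some laboratory mouse strains, was present at 8.27, 6.65 and 25.8 CPM in Hashtag 5 cells and at 7.45, 6.3 and 24.5 in WT cells.

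Over all genes Hashtag 5 cells lay close to WT cells. Each group is 1 sample per gate, so no difference has a replicate check, no test was run, and the 95% intervals given in brackets cover counting error only. A gene is called past 1.5-fold when its ratio was at least 1.5 or at most 0.667, with an interval that left out 1, among genes at 20 CPM or more in 1 of the 2 groups. Of 6476 genes in CD4 SP, 15 were past 1.5-fold between Hashtag 5 and WT cells (0.232%), 10 higher (0.154%) and 5 lower (0.0772%). In CD8 SP there were 35 of 6163 (0.568%), 17 higher (0.276%) and 18 lower (0.292%). In DP there were 83 of 7098 (1.17%), 33 higher (0.465%) and 50 lower (0.704%). The split depended on the scaling: in DP it was 17 higher and 77 lower with TMM factors (a trimmed mean scaling) and 68 and 23 by means over cells, and in the CD8 SP gate 12 and 8 by means over cells. Without the barcodes that recur between libraries, left out after seeing the data, the counts were 16, 33 and 87. The median gene differed by a factor of 1.043, 1.046 and 1.084 in either direction.

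More genes separated Hashtag 5 cells from I173A cells than from WT cells in each gate. Hashtag 5 against I173A cells gave 42 of 6543 CD4 SP genes (0.642%), 28 higher (0.428%) and 14 lower (0.214%). It gave 130 of 6237 CD8 SP genes (2.08%), 110 higher (1.76%) and 20 lower (0.321%), and 343 of 7213 DP genes (4.76%), 278 higher (3.85%) and 65 lower (0.901%). I173A against WT cells gave 31 of 6511 (0.476%), 17 higher (0.261%) and 14 lower (0.215%), then 336 of 6284 (5.35%), 48 higher (0.764%) and 288 lower (4.58%), and 535 of 7175 (7.46%), 170 higher (2.37%) and 365 lower (5.09%). These comparisons share groups, so their counts are not independent. Without cycling and S phase clusters, which I173A cells filled less, 32 genes were left between Hashtag 5 and I173A cells of CD8 SP and 73 of DP. In the same setting Hashtag 5 against WT gave 23 and 44 and I173A against WT 22 and 70, so Hashtag 5 against WT was no longer the smallest count in CD8 SP.

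**Figure D1:**
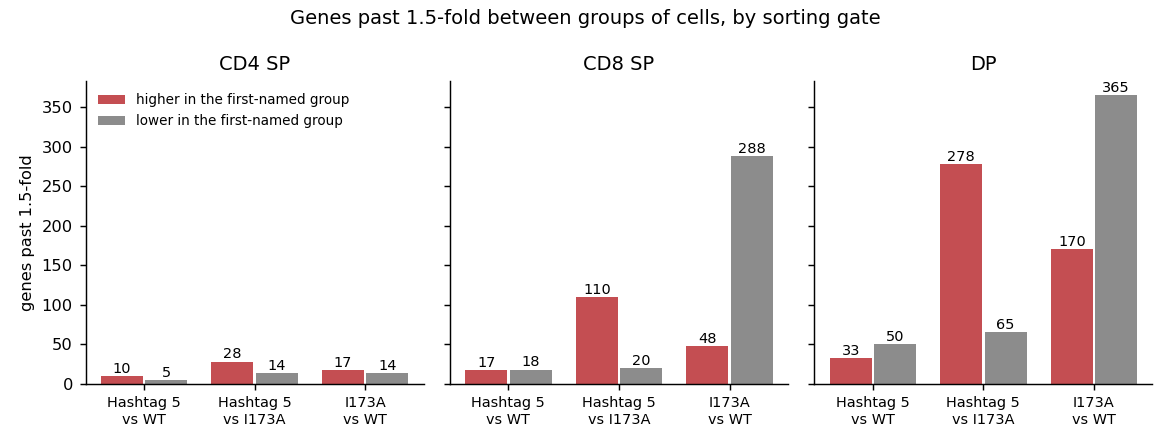
Number of genes past 1.5-fold (y axis) in each comparison of 2 groups of cells, by gate; red bars count genes higher in the first-named group and grey bars genes lower in it. With all clusters, Hashtag 5 against WT has the fewest in each gate, 15, 35 and 83, and I173A against WT reaches 336 in the CD8 SP gate and 535 in DP.

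Only 3 genes were past 1.5-fold between Hashtag 5 and WT cells the same way in all 3 gates. Cdk5rap1, an enzyme that modifies mitochondrial tRNAs, was at 30.5 CPM in Hashtag 5 cells of CD4 SP, against 10.2 in WT and 10.6 in I173A cells. In CD8 SP it was at 21.7 against 7.85 and 7.49, and in DP at 32.4 against 10.2 and 13.3. Hashtag 5 cells thus stood above both other groups in every gate. Their ratio to WT was 3.0 (2.55 to 3.53) in CD4 SP, 2.77 (2.32 to 3.32) in the CD8 SP gate and 3.19 (2.54 to 4.02) in DP, and their ratio to I173A 2.87, 2.9 and 2.44. After each cell was thinned to 1500 UMIs, a Cdk5rap1 UMI was found in 5.13% of Hashtag 5, 1.27% of WT and 1.48% of I173A cells in CD4 SP (16.9%, 6.43% and 6.42% before thinning). The thinned shares in the CD8 SP gate were 3.6%, 1.28% and 1.11%, and in DP 4.79%, 1.59% and 1.99%. Cdk5rap1 lies at chr2:154222011-154373038 of GRCm38 in RefSeq's annotation, a span that also holds Bpifb5, Bpifb9a and Bpifb9b. Those genes had no UMI but for Bpifb5 at 0.0496 CPM in Hashtag 5 cells of CD8 SP.

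AC149090.1, a gene known here by its clone name and matched to no RefSeq entry, was higher than WT in both other groups. Its levels in CD4 SP were 65.7 CPM in WT, 147 in Hashtag 5 and 116 in I173A cells. They were 46.8, 98.0 and 77.4 in the CD8 SP gate and 85.9, 218 and 182 in DP. WT cells were thus lowest and Hashtag 5 cells highest in every gate. The ratio of Hashtag 5 to WT was 2.24 (2.1 to 2.4), 2.1 (1.94 to 2.26) and 2.53 (2.34 to 2.75), and that of Hashtag 5 to I173A 1.27, 1.27 and 1.2.

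Banp, a DNA-binding protein of the nuclear matrix (chr8:121947972-122029260), went the other way. It was at 33.3 CPM in WT, 20.6 in Hashtag 5 and 22 in I173A cells of CD4 SP, at 28.4, 16.7 and 17.6 in the CD8 SP gate, and at 47.4, 30.6 and 28.9 in DP. The ratio of Hashtag 5 to WT was 0.618, 0.588 and 0.644, and that of Hashtag 5 to I173A was near 1 at 0.936, 0.951 and 1.06. For Banp Hashtag 5 cells therefore lay beside I173A cells and apart from WT cells. For AC149090.1 I173A cells lay between the other groups, nearer to Hashtag 5 than to WT cells.

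These 3 differences were present across the cell clusters that were compared. Cells of all gates were clustered together without use of the hashtags. This gave 19 combinations of cluster and gate with at least 50 cells in each of the 3 groups, I173A included. Combinations with fewer I173A cells, such as cluster 19 of DP, were left out. AC149090.1 was higher in Hashtag 5 than in WT cells in 19 of 19, with ratios from 1.43 to 3.5. Cdk5rap1 was higher in 19 of 19, from 1.71 to 8.32, with an interval above 1 in 16. Banp was lower in 19 of 19, from 0.346 to 0.998, with an interval below 1 in 13.

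**Figure D2:**
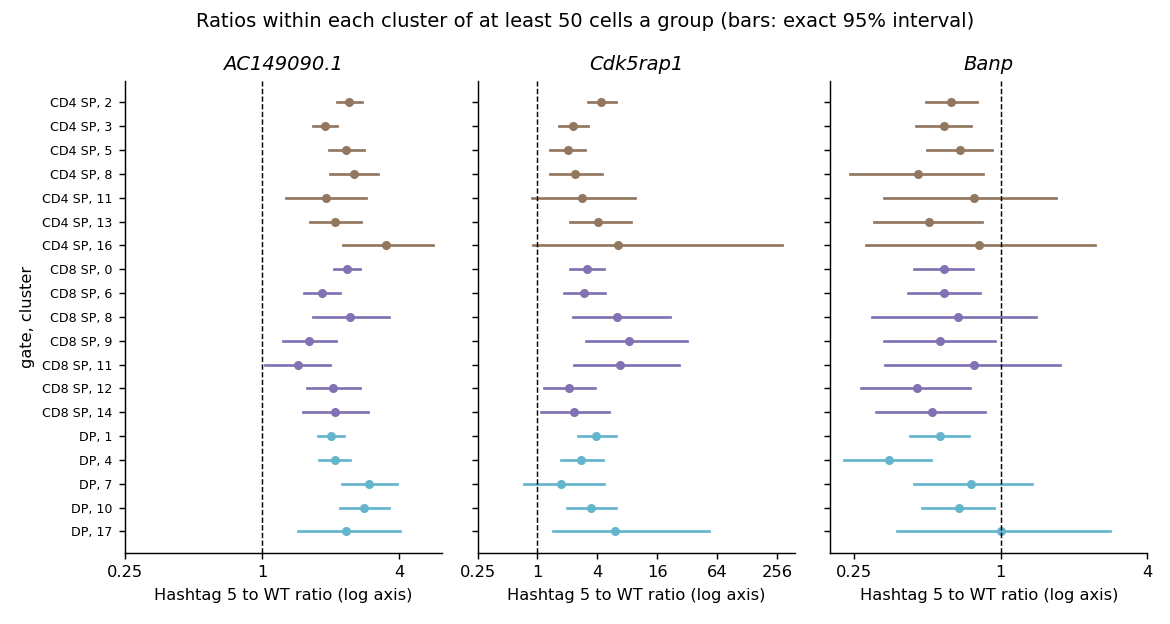
Ratio of Hashtag 5 to WT (x axis, log scale) for AC149090.1, Cdk5rap1 and Banp within each cluster of each gate (y axis, gate and cluster number); points are ratios of CPM, bars exact 95% intervals and the dashed line equality. All 19 points, from clusters with at least 50 cells in each of the 3 groups, lie above 1 for AC149090.1 and Cdk5rap1 and below 1 for Banp.

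Eps8l1, an adaptor of the actin-regulating Eps8 family (chr7:4460638-4480487), passed the floor of 20 CPM in DP alone. There it was at 6.72 CPM in WT, 22.4 in Hashtag 5 and 16.2 in I173A cells, a ratio of Hashtag 5 to WT of 3.33. Below the floor it was at 5.11, 14.0 and 7.57 CPM in CD4 SP and at 3.73, 10.9 and 7.6 in the CD8 SP gate, so Hashtag 5 cells were again highest.

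Genes that set I173A cells apart in all 3 gates placed Hashtag 5 cells differently, gene by gene. I173A cells were past 1.5-fold above WT in every gate for AC149090.1, Cpt1a, Ddit4, Nr4a1 and Tsc22d3, and below WT for Banp, Gm42031, Hist1h2ac, Hsph1 and Jun. Since the I173A and WT values chose these genes and all ratios share groups, the levels of Hashtag 5 cells are given as a description.

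Cpt1a, the rate-limiting enzyme of fatty acid entry into mitochondria (chr19:3322326-3385735), was close to WT in Hashtag 5 cells. Its CPM in WT, Hashtag 5 and I173A cells were 8.72, 8.48 and 40.1 in CD4 SP, 10.0, 8.73 and 28.6 in the CD8 SP gate, and 11.3, 10.5 and 52.9 in DP. The ratio of Hashtag 5 to WT was 0.973 (0.781 to 1.21), 0.871 (0.711 to 1.07) and 0.935 (0.709 to 1.23), with 1 inside each interval, while that to I173A was 0.212, 0.306 and 0.199. The list of fatty acid oxidation and carnitine shuttle genes was as close to WT. Its median log2 ratio of Hashtag 5 to WT was -0.01 in CD4 SP, -0.01 in the CD8 SP gate and -0.0 in DP over 22, 21 and 22 measured members, none past 1.5-fold.

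Jun, a subunit of the AP-1 transcription factor (chr4:95049036-95052222), was also near WT. It was at 43.3, 39.8 and 15.9 CPM in WT, Hashtag 5 and I173A cells of CD4 SP, at 39.8, 34.7 and 14.5 in the CD8 SP gate, and at 106, 106 and 44.8 in DP. Hashtag 5 cells had 2.51, 2.4 and 2.37 times the I173A level. Gm42031, a gene with a provisional name, was also near WT and above I173A, at 52.4, 53.6 and 29.3 CPM in CD4 SP, 106, 106 and 52.2 in the CD8 SP gate, and 184, 160 and 66.9 in DP.

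Tsc22d3, a glucocorticoid-induced transcriptional regulator (chrX:140539528-140600522), lay between the other groups and nearer to WT. Its levels in WT, Hashtag 5 and I173A cells were 86.2, 108 and 196 CPM in CD4 SP, 80.1, 99.2 and 214 in the CD8 SP gate, and 99.0, 121 and 223 in DP. Ddit4, a stress-induced inhibitor of the growth kinase mTORC1, was at 134, 175 and 314 CPM in the CD8 SP gate and 116, 149 and 204 in DP, and in CD4 SP at 234 CPM in Hashtag 5 and 372 in I173A cells. For Tsc22d3 the ratio of Hashtag 5 to WT was 1.23 to 1.25, and for Ddit4 1.28 to 1.35, short of 1.5 in each gate. Hsph1, a heat shock protein, was intermediate in the other direction, at 46.8, 30.6 and 18.0 CPM in CD4 SP, 65.0, 48.7 and 32.2 in the CD8 SP gate, and 30.1, 21.4 and 13.4 in DP. It was past 1.5-fold below WT in CD4 SP alone, with a ratio of 0.654 against 0.749 and 0.709 in the other gates. Hist1h2ac, a histone gene with near-identical family members among which reads can be split, was at 21.7, 18.9 and 14.1 CPM in the CD4 SP gate, at 61.8, 43.6 and 30.7 in the CD8 SP gate, and at 166, 132 and 103 in DP.

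Nr4a1, a nuclear receptor induced by TCR signals, was close to I173A in Hashtag 5 cells of DP and between the groups in the other gates. In DP it was at 29.4 CPM in WT and 49.1 in Hashtag 5 cells, 0.983 times the I173A level. WT, Hashtag 5 and I173A cells had 34.6, 46.7 and 59.3 CPM in the CD8 SP gate and 151, 197 and 227 in the CD4 SP gate. Hashtag 5 cells had 1.67, 1.35 and 1.3 times the WT level in DP, CD8 SP and CD4 SP.

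**Figure D3:**
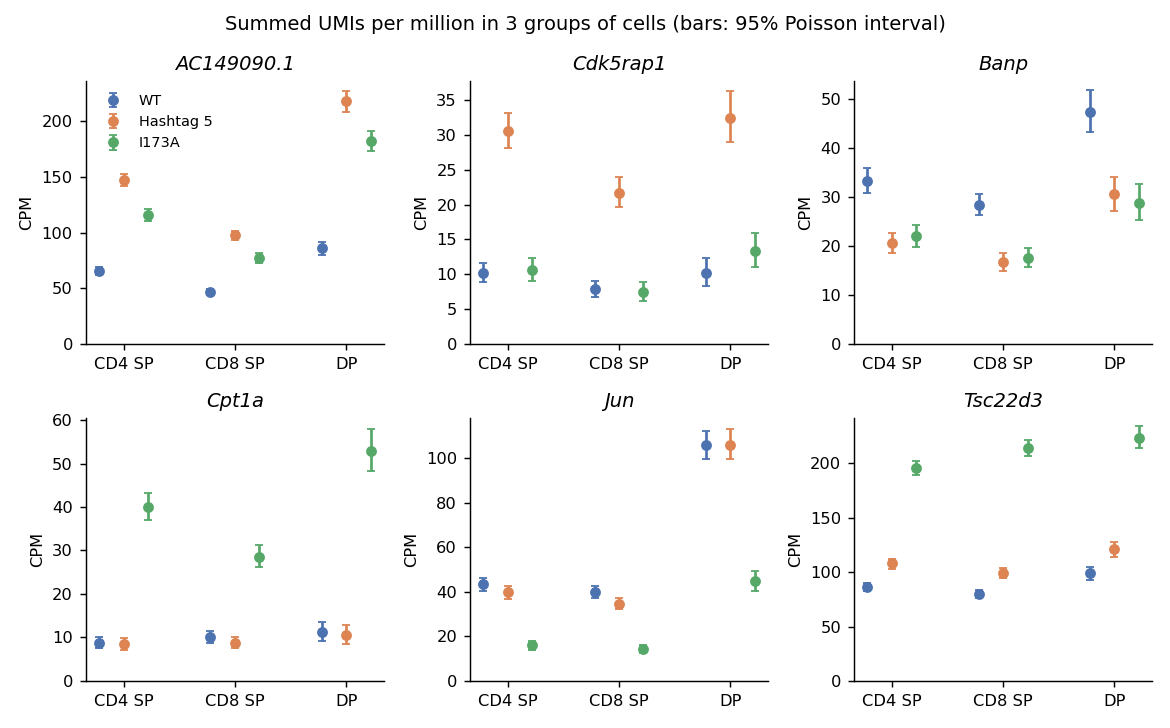
Level in CPM (y axis) of 6 genes in WT, Hashtag 5 and I173A cells of each gate (x axis); points are sums over the cells of a group and bars 95% Poisson intervals. Hashtag 5 cells are alone at 21.7 to 32.4 CPM for Cdk5rap1, beside I173A cells for Banp, close to WT cells for Cpt1a, and between the groups for Tsc22d3.

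Genes higher in Hashtag 5 than in WT cells included the interferon-stimulated genes, antiviral genes that cells switch on when interferon binds its receptor. Of 27 measured list members, 27 were higher in CD4 SP with 3 past 1.5-fold, and 27 of 27 in the CD8 SP gate with 7 past it. In DP 20 of 22 were higher, with 4 past it. The median log2 ratio was 0.26, 0.33 and 0.41, beside 0.01, -0.0 and 0.05 over all genes, of which 54.1%, 48.8% and 61.5% were higher. Past 1.5-fold higher were 0.154%, 0.276% and 0.465% of all genes.

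Rsad2, an antiviral enzyme (chr12:26442743-26456452), was at 14.4 CPM in WT, 30.0 in Hashtag 5 and 12.3 in I173A cells of CD4 SP. In CD8 SP it was at 6.88, 21.0 and 10.7, and in DP, where it was below the floor, at 3.16, 6.4 and 4.16. Hashtag 5 cells were highest in each gate, with ratios to WT of 2.08, 3.05 and 2.02. Ifit3, which binds viral RNA complexes, was at 30.2, 55.5 and 21.1 CPM in the CD4 SP gate and 36.1, 57.5 and 41.9 in the CD8 SP gate; it has a near-identical neighbour, Ifit3b, with which reads may be shared. Usp18, an inhibitor of the interferon receptor, was at 60.2, 90.3 and 54.0 CPM in the CD4 SP gate and 41.7, 69.9 and 45.1 in the CD8 SP gate. In CD8 SP, Isg15, a ubiquitin-like modifier, was at 180, 273 and 204 CPM and Oasl2 at 11.3, 22 and 14.5. Other members led in DP: Ifi27l2a was at 30.9, 67.0 and 34.2 CPM, Rtp4 at 15.3, 31.2 and 20.7, Irf9, a subunit of the interferon-activated factor ISGF3, at 19.0, 30.7 and 22.6, and Trim30a at 15.5, 27.8 and 22.2.

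I173A cells differed from Hashtag 5 cells in this list by gate. Their median log2 ratio to WT was -0.2 in CD4 SP, with 1 of 26 members higher, but 0.35 in the CD8 SP gate, with 25 of 27 higher, and 0.23 in DP, with 18 of 22. Over all genes 61.9%, 55.3% and 62.7% were higher in I173A than in WT cells, with medians of 0.04, 0.03 and 0.08. Set directly against I173A, Hashtag 5 cells were higher for 27 of 27 members in CD4 SP, with 9 past 1.5-fold and a median of 0.47. In CD8 SP 17 of 27 were higher, with 3 past 1.5-fold and a median of 0.09, and in DP 19 of 23, with 4 past it and a median of 0.21. Over all genes 41.7%, 44.5% and 48.5% were higher in Hashtag 5 than in I173A cells, with medians of -0.03, -0.03 and -0.01. Past 1.5-fold higher were 0.428%, 1.76% and 3.85% of all genes.

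**Figure D4:**
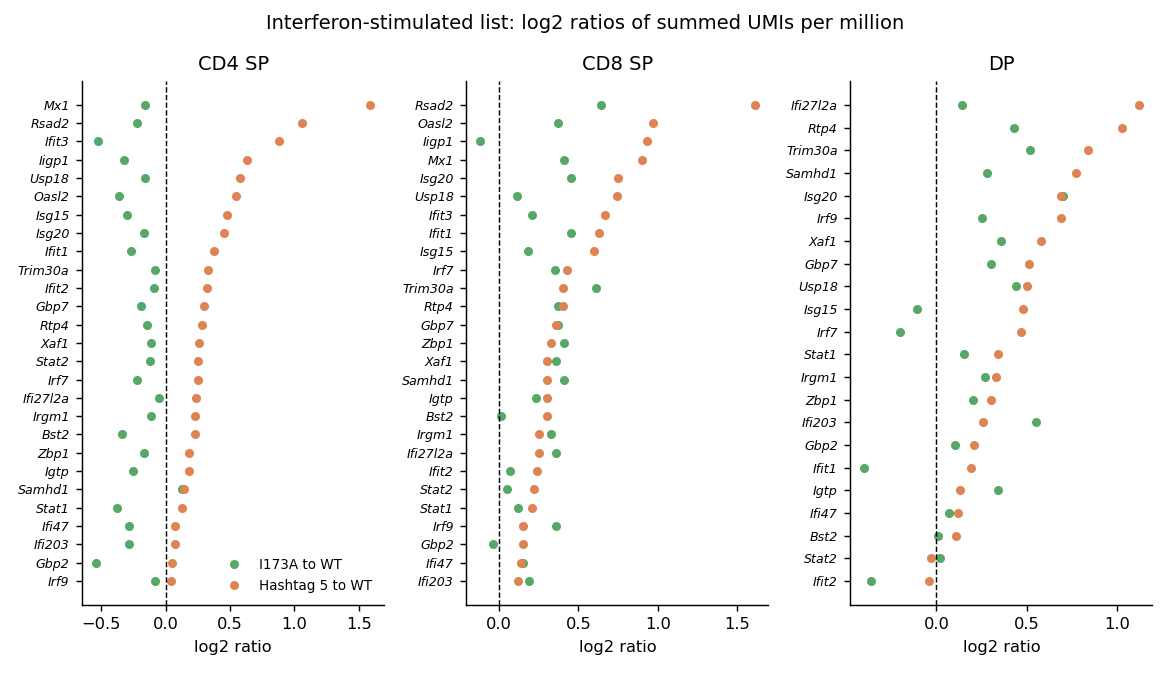
Log2 ratio (x axis) of each measured interferon-stimulated list member (y axis, one gene per row) to WT, for Hashtag 5 cells in orange and I173A cells in green, by gate; the dashed line marks equality. All orange points lie above 0 in CD4 SP and CD8 SP, and 20 of 22 in DP, while all green points in CD4 SP but that of Samhd1 lie below 0.

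Cells with much interferon-stimulated RNA were more frequent among Hashtag 5 cells. After thinning each cell to 1500 UMIs, 20 or more UMIs of the list were found in 8.67% (7.65 to 9.78) of Hashtag 5 cells in CD4 SP, 6.21% (5.38 to 7.12) of WT and 4.26% (3.52 to 5.11) of I173A cells. In CD8 SP the shares were 5.79% (4.94 to 6.75), 3.17% (2.57 to 3.86) and 2.96% (2.37 to 3.66). The median cell did not show it, at 6 UMIs of the list in both Hashtag 5 and WT cells of CD4 SP and 5 in both of CD8 SP. In DP 5 or more such UMIs were found in 4.37% of Hashtag 5, 2.72% of WT and 2.61% of I173A cells. Thinning left out 47 WT, 60 Hashtag 5 and 37 I173A cells in CD4 SP, 51, 53 and 69 in the CD8 SP gate, and 310, 406 and 288 in DP. Without thinning the shares with 20 or more were 58.7%, 56.4% and 48.3% in CD4 SP (Hashtag 5, WT, I173A) and 53.7%, 45.9% and 45.5% in the CD8 SP gate. Those with 5 or more were 16.7%, 14.5% and 13.4% in DP. Without the interferon-responding clusters, left out after seeing the data, the list's median log2 ratio was 0.14, 0.15 and 0.41, and with equal cluster shares it was 0.13 in CD8 SP.

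Promoters of these genes are known for a repeated GAAA element bound by interferon-activated factors. The letters GAAA, any 2 bases and GAAA again, which read TTTC, 2 bases and TTTC on the other strand, were searched on both strands, overlaps included, in RefSeq's promoters of GRCm38.p6, from 250 bases before to 50 after the start of a gene. They were found for 1079 of 27025 genes (3.99%) and for 12 of the 20 list members, of 28, with a promoter in the table. Of the 12 members past 1.5-fold higher in at least 1 gate, 8 had a promoter there and 5 of these held the letters (62.5%). The stretches of the 4 that were past 1.5-fold in the CD8 SP gate follow in the gene's direction, with the match in capitals.
Rsad2, chr12:26456553-26456582, minus strand: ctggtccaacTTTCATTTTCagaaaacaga
Ifit3, chr19:34583397-34583426, plus strand: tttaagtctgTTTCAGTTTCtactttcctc
Ifit1, chr19:34640775-34640823, plus strand: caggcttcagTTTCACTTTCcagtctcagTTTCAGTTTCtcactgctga
Isg15, chr4:156200865-156200906, minus strand: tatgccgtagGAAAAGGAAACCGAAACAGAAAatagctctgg
Ifit1 held 2 matches, Isg15 held 3 that overlap, and Ifit3 held 2, of which 1 is shown. Ifit1 itself was at 107 CPM in Hashtag 5 cells of CD8 SP against 69.4 in WT and 94.9 in I173A cells. A match of letters is a description of the sequence and not a measured binding site.

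Among genes lower in Hashtag 5 than in WT cells, those of G2 and mitosis stood out in DP by number, with 17 of the 50 lower genes in the cell cycle lists. Of 33 measured members of the G2/M list, 32 were lower in DP with 17 past 1.5-fold, and the median log2 ratio was -0.6. In CD8 SP 33 of 33 were lower with 2 past 1.5-fold and a median of -0.47, and in CD4 SP 27 of 30 were higher with none past it and a median of 0.13. In DP Ube2c, which directs mitotic proteins to destruction, was at 521 CPM in WT, 258 in Hashtag 5 and 171 in I173A cells. Plk1, a mitotic kinase, was there at 98.1, 53.4 and 35.1, and Mki67, a protein of the mitotic chromosome surface, at 732, 543 and 250. Hashtag 5 cells were between WT and I173A cells for each of these. In CD8 SP Mki67 was at 288, 219 and 166 CPM and in CD4 SP at 61.9, 77.2 and 58.3, so the order held in the CD8 SP gate and not in CD4 SP. Among the 18 lower genes in the CD8 SP gate, 8 were replication-dependent histone genes, such as Hist1h1b at 601, 392 and 274 CPM and Hist1h1a at 231, 149 and 93.5.

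Cell counts followed the same order in DP. In sums over a gate, fewer cells of a type and less RNA per cell cannot be told apart, so the cells of each cluster were counted as well. Clusters with a cycling-like profile held 8.39% (7.38 to 9.49) of Hashtag 5 cells in DP, 12.1% (10.9 to 13.5) of WT and 3.36% (2.72 to 4.11) of I173A cells. The ratio of Hashtag 5 to WT was 0.692 (0.581 to 0.824) and that to I173A 2.5. Clustering without the 116 genes past 1.5-fold gave 11.9%, 15.5% and 4.84% in the same order, with a ratio of 0.765 (0.659 to 0.889). In CD8 SP the cycling-like share was 10.2%, 12.8% and 7.28%, but the ratio of Hashtag 5 to WT, 0.8 (0.684 to 0.935), became 0.887 (0.774 to 1.02) without those genes. S phase-like clusters held 11.9% of Hashtag 5, 10.0% of WT and 6.72% of I173A cells there, and cycling and S phase cells together came to 22.1%, 22.8% and 14.0%. In CD4 SP the cycling-like share was 2.16%, 1.83% and 1.8%. A UMI of Mki67 after thinning was found in DP in 15.9% of Hashtag 5 cells, 18.8% of WT cells and 8.56% of I173A cells (19.0%, 22.8% and 12.0% before thinning), against 0.118% and 0.539% in the mature CD4 SP-like and CD8 SP-like clusters.

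Without the cycling clusters the G2/M list was no longer lower. Those clusters were named from genes of the same kind, such as Mki67 and Ube2c. Leaving them out therefore cannot tell fewer cycling cells from less RNA per cell. The list's median log2 ratio was then 0.13 in the CD8 SP gate and 0.11 in DP, and the number of lower genes in DP was 4 in place of 50, with 23 higher. The S phase list, whose members replicate DNA, had a median of -0.08 in the CD8 SP gate and -0.09 in DP with none past 1.5-fold. With all clusters, 0.568% of all genes in the CD8 SP gate and 1.17% in DP were past 1.5-fold.

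**Figure D5:**
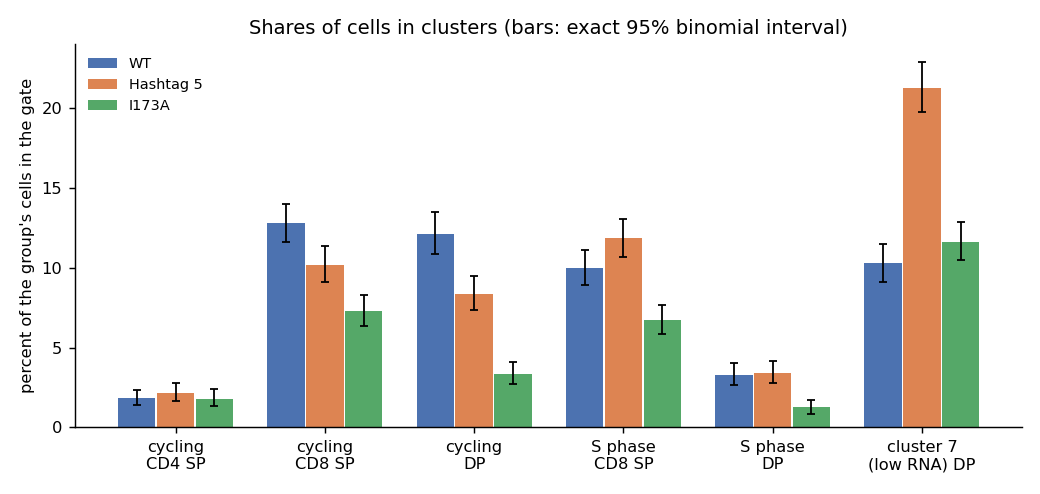
Percent of a group's cells in a gate (y axis) that fell in cycling-like, S phase-like or low-RNA clusters (x axis), for WT, Hashtag 5 and I173A cells; bars are shares and whiskers exact 95% binomial intervals. Hashtag 5 cells lie between WT and I173A in the cycling-like clusters of CD8 SP and DP, and highest at 21.3% in the low-RNA cluster of DP.

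One cluster of DP cells took a larger share of Hashtag 5 cells than of the other groups. Cluster 7, a rearranging DP-like cluster, contained 1163 DP cells. Their median was 1585 UMIs, with 2.87% of UMIs mitochondrial, against a median of 2681 UMIs over all Hashtag 5 cells of DP. It took 589 of 2765 Hashtag 5 cells, 21.3% (19.8 to 22.9), against 10.3% (9.13 to 11.5) of WT and 11.6% (10.5 to 12.9) of I173A cells. The ratio of Hashtag 5 to WT was 2.07 (1.78 to 2.4), and 2.05 after clustering without the genes past 1.5-fold. Within it the 3 groups had like depth, with median UMIs of 1607, 1538 and 1585 in Hashtag 5, WT and I173A cells. The smaller low-RNA cluster 19 held 3.07%, 3.3% and 1.33% of them. Without both low-RNA clusters, a choice made after seeing the data, 49 genes were past 1.5-fold between Hashtag 5 and WT cells of DP, 16 higher and 33 lower. In CD4 SP the low-RNA cluster 16, with 4.64% of UMIs mitochondrial, held 4.17% of Hashtag 5, 2.77% of WT and 2.89% of I173A cells, a ratio of Hashtag 5 to WT of 1.51 (1.13 to 2.01). The part of RNA quality in these clusters was not tested.

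Genes induced by TCR signals were slightly higher in Hashtag 5 than in WT cells in DP. Of 24 measured members of the TCR signal response list, 23 were higher, with 2 past 1.5-fold and a median log2 ratio of 0.31. Over all genes of DP 61.5% were higher, with a median of 0.05, and 0.465% were past 1.5-fold higher. The list's median was 0.2 without cycling clusters and 0.1 with equal cluster shares. The signalled cluster of DP was named from genes of this response, Nr4a1 among them, so equal shares are not independent of the list. The part of the cell mix was not tested. Past 1.5-fold were Nr4a1, given above, and Nab2, a corepressor of Egr factors, at 21.0 CPM in WT, 38.9 in Hashtag 5 and 45.6 in I173A cells of DP. Cd5, a surface protein that tracks TCR signal strength and dampens it, was at 182, 250 and 290 CPM in DP, a ratio of Hashtag 5 to WT of 1.37 (1.29 to 1.46). Within clusters of DP that ratio for Cd5 was 0.978 and 1.11 in the rearranging clusters 1 and 4, 0.78 in cycling cluster 10 and 1.02 in signalled cluster 17, and it was high at 2.11 (1.71 to 2.64) in the low-RNA cluster 7. For Nr4a1 the ratio was 1.23, 1.11 and 1.57 in clusters 1, 4 and 10, each with an interval that included 1. It was 1.72 (1.4 to 2.12) in cluster 17 and 0.459 (0.292 to 0.725) in cluster 7. Signalled-like clusters, made without the genes past 1.5-fold, held 6.8% of Hashtag 5 cells, 5.17% of WT cells and 8.98% of I173A cells of DP. Egr1, an early factor of the same response, was at 93.2, 104 and 151 CPM, and Cd69, an activation marker, at 51.7, 66.2 and 64.7. In CD4 SP 17 of 26 members were higher with a median of 0.07, and in CD8 SP 16 of 24 with a median of 0.04, beside 54.1% and 48.8% of all genes higher. None was past 1.5-fold in either gate, beside 0.232% and 0.568% of all genes. Cd5 was there at 548, 594 and 606 CPM and at 172, 184 and 228.

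The TCR complex itself was near WT. Cd3e, the gene that carries the substitution in I173A mice, was at 1340, 1320 and 1440 CPM in WT, Hashtag 5 and I173A cells of CD4 SP, 1200, 1240 and 1440 in the CD8 SP gate, and 1370, 1450 and 1760 in DP. These sums do not show which allele was read. Genes of the TCR complex and proximal signalling list, 31 in all, had median log2 ratios of Hashtag 5 to WT of -0.02, 0.0 and 0.08. Over all genes the medians were 0.01, -0.0 and 0.05. None of the 31 was past 1.5-fold in any gate, beside 0.232%, 0.568% and 1.17% of all genes, so few calls would be met in any list of this size. Rag1, a recombinase of TCR genes, was at 1050, 1090 and 1230 CPM in DP. In the CD8 SP gate it was at 26.7 CPM in WT and 25.5 in Hashtag 5 cells, against 7.49 in I173A cells.

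Regulatory T cell genes were higher in Hashtag 5 cells of CD4 SP by small steps. Of 13 measured members 12 were higher, none was past 1.5-fold at 20 CPM, and the median log2 ratio was 0.27, or 0.13 with equal cluster shares. Over all genes of CD4 SP 54.1% were higher, with a median of 0.01, and 0.154% were past 1.5-fold higher. Il2ra, the α chain of the interleukin-2 receptor, had a ratio of 1.98 (1.66 to 2.36), at 9.89 CPM in WT, 19.5 in Hashtag 5 and 15.1 in I173A cells. Foxp3, the factor that defines the lineage, was at 5.55, 6.99 and 4.18 CPM, a ratio of Hashtag 5 to WT of 1.26 (0.972 to 1.63) that counting error spans. Ikzf2 was at 66.8, 87.3 and 82.3 CPM.

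The remaining genes past 1.5-fold in the CD4 SP gate were few. Lower in Hashtag 5 than in WT cells were Amigo2, an adhesion molecule, at 54.5 CPM in WT, 33.5 in Hashtag 5 and 34.0 in I173A cells, Hsph1 and Banp, both with values above, and the TCR segments Trbv29 and Trav7d-4. Higher, beside interferon-stimulated genes, Cd74, AC149090.1 and Cdk5rap1, was Lad1 at 21.3, 33.3 and 30.2 CPM. In CD8 SP, Ly6c2, a surface marker of mature and memory-like CD8 cells, was at 44.6, 69.6 and 50.7 CPM, and Plac8 at 80.8, 127 and 95.6. Hashtag 5 cells were highest for both, with ratios to WT of 1.56 and 1.57. In DP the higher genes included Ly75, an endocytic receptor, at 16.3, 28.8 and 24.5 CPM, Vav3, a guanine nucleotide exchange factor, at 12.1, 22.2 and 20.7, Abca1, a cholesterol exporter, at 24.9, 43.2 and 40.9, and St8sia4, a sialyltransferase, at 45.7, 71.3 and 56.9. Fos, the partner of Jun in AP-1, was among the lower genes of DP at 44.3, 29.4 and 15.5 CPM.

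Cd74, the invariant chain of MHC class II that antigen-presenting cells make, had a high ratio in 2 gates. It was at 46.4 CPM in WT, 112 in Hashtag 5 and 39.8 in I173A cells of CD4 SP, and at 5.63, 33.0 and 19.7 in DP. In these gates Hashtag 5 cells were also highest for other genes of such cells. H2-Aa, a chain of MHC class II, was at 1.22, 18.0 and 0.477 CPM in the CD4 SP gate and 2.08, 14.2 and 5.66 in DP. Lyz2, a lysozyme of macrophages, was at 0.633, 3.25 and 1.01 CPM in the CD4 SP gate and 3.66, 14.0 and 9.93 in DP, so I173A cells were below WT for H2-Aa in CD4 SP and above it for Lyz2. In the CD8 SP gate I173A cells were highest for Cd74, at 21.4, 23.4 and 104 CPM, and for H2-Aa, at 0.754, 0.893 and 25.5. Lyz2 was there at 0.577, 0.695 and 0.34. The 15 members of the macrophage or dendritic cell list summed to 153, 294 and 160 CPM in CD4 SP, 134, 149 and 371 in the CD8 SP gate, and 204, 287 and 222 in DP, with 0 to 2 members at 0 in a group. The macrophage or dendritic-like cluster held 4 WT, 13 Hashtag 5 and 7 I173A cells in CD4 SP and 11, 23 and 8 in DP. Without that cluster Cd74 was at 45.5, 45.4 and 38.7 CPM in CD4 SP and at 0.794, 4.59 and 2.78 in DP, so the groups lay close together in CD4 SP, while Hashtag 5 cells stayed highest in DP.

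TCR libraries, which the hashtag rule did not use, gave Hashtag 5 and WT cells similar shares of cells with an α chain. A productive α chain (TRA) was found in 87.0% (85.7 to 88.2) of Hashtag 5, 89.1% (87.9 to 90.2) of WT and 89.1% (87.8 to 90.2) of I173A cells in CD4 SP. In CD8 SP the shares were 78.5% (76.9 to 80.0), 78.0% (76.5 to 79.5) and 82.4% (81.0 to 83.8), and in DP 28.4% (26.8 to 30.1), 27.8% (26.1 to 29.6) and 35.1% (33.3 to 36.9). Hashtag 5 and WT cells thus differed by under 1 percentage point in the CD8 SP gate and in DP, and I173A cells were above both. Without the low-RNA clusters the DP shares were 32.7%, 30.2% and 37.8%, a wider gap between Hashtag 5 and WT cells.

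A β chain (TRB) was found in 93.2%, 93.9% and 94.7% of Hashtag 5, WT and I173A cells in CD4 SP, and 93.7%, 94.5% and 93.7% in the CD8 SP gate. In DP the shares were 75% (73.4 to 76.6), 79.3% (77.7 to 80.9) and 81.6% (80.0 to 83.0), and the intervals of Hashtag 5 and WT cells did not overlap. The ratio of Hashtag 5 to WT there was 0.946 (0.889 to 1.01). That interval treats the counts as Poisson, which makes it too wide for shares this large. The lower share of Hashtag 5 cells in DP moved with cluster 7, in which 39.9%, 41.7% and 45.4% of cells had a TRB chain. Without the low-RNA clusters the shares were 87.3%, 86.2% and 87.2%, so Hashtag 5 cells were no longer below WT. Among cells with a TRA chain, 2 or more were found in 13.6%, 15% and 13.9% in CD4 SP, 11.9%, 13.6% and 13.2% in the CD8 SP gate, and 8.52%, 8.14% and 10.3% in DP. Each interval of these last ratios of Hashtag 5 to WT included 1.

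Use of V and J segments was close to WT. Among segments with at least 50 chains over both groups, 3 of 113 in CD4 SP (2.65%), 2 of 107 in the CD8 SP gate (1.87%) and 2 of 45 in DP (4.44%) differed past 1.5-fold between Hashtag 5 and WT cells. Hashtag 5 against I173A cells gave 0 of 110, 2 of 110 (1.82%) and 2 of 57 (3.51%), and I173A against WT 1 of 116 (0.862%), 2 of 110 (1.82%) and 1 of 51 (1.96%). The lowest ratio in CD4 SP was that of TRBV29, in 1.48% of TRB chains of Hashtag 5, 2.85% of WT and 2.22% of I173A cells, a ratio to WT of 0.522 (0.351 to 0.764). Its RNA gave the same order, with Trbv29 at 47.7, 94.1 and 78.3 CPM. In CD8 SP the same segment was in 7.1%, 6.1% and 6.68% of chains and in DP in 3.63%, 3.95% and 3.67%, without a difference past 1.5-fold. TRAJ43 (3.32%, 2.17% and 2.7%) and TRAJ56 (2.11%, 1.35% and 1.85%) were higher in CD4 SP. In CD8 SP TRAV7-3 was higher (1.66%, 0.935% and 1.68%) and TRAV7-4 lower (1.12%, 1.83% and 1.27%); the TRAV7 segments are similar copies and their calls can be mixed up. In DP TRBV13-2 (2.26%, 1.36% and 2.58%) and TRAJ22 (4.57%, 2.51% and 2.96%) were higher.

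The invariant TRAV11 and TRAJ18 chain of natural killer T cells made up 1.25% of TRA chains in Hashtag 5, 1.41% in WT and 1.37% in I173A cells of CD4 SP. Over all gates, 4439 Hashtag 5 cells had exactly 1 TRA and 1 TRB chain, and these formed 4432 different pairs by V, J and junction. Of those pairs 6 were in 2 or more cells, against 11 in WT and 4 in I173A cells. Hashtag 5 cells shared 0 pairs with WT and 0 with I173A cells, while WT and I173A cells shared 1.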

How the data were processed

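The authors deposited raw UMI counts per gene and per hashtag for each barcode of the 3 RNA libraries, and contigs with read and UMI counts for the 3 TCR libraries. The submitters' processing notes name Cell Ranger 6.0.1 and the build GRCm38 (mm10). A software version of 3.1.0 stands in the matrices, per the file headers. Other deposited files hold barcodes, gene names and tag sequences. Filters before deposit are not given in the sources used here.

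UMIs of the cells of each hashtag and gate were summed and divided by the group's total (CPM). Ratios carry the exact conditional 95% interval for 2 Poisson counts, which is too wide for ratios of large shares. CPM carry exact Poisson intervals, and shares exact Clopper-Pearson intervals. All these intervals cover counting error only, and with 1 sample per group nothing was tested.

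Cells of all gates and hashtags entered 1 Leiden clustering (Scanpy 1.11.5, leidenalg 0.10.2; 10000 UMIs per cell, 2000 variable genes, 30 components, 15 neighbours, resolution 1). Clusters were named from marker genes as "X-like" or left unnamed, and these names are not the study's. Barcodes with several hashtags were removed as doublets, and no doublet caller was run. Equal cluster shares weight each cluster's CPM by its mean share over the 3 groups.

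Genes named were, per gate, the 10 highest and 10 lowest ratios of Hashtag 5 to WT among genes with 200 UMIs and 20 CPM whose interval left out 1 (receptor segments, genes known by clone names, and mitochondrial, haemoglobin and ribosomal protein genes set aside), genes past 1.5-fold in all 3 gates, up to 3 members each way of 35 gene lists, and fixed genes such as Cd3e, Cpt1a and Nr4a1. Genes placed by I173A cells, Gm42031, Hist1h2ac, the Bpif genes, Trbv29, H2-Aa and the further genes of the CD4 SP, CD8 SP and DP gates outside this rule were chosen after their values were seen. A list member entered at a mean of 5 CPM. The members and lists were chosen with earlier results of these data known. Positions and promoters are RefSeq's for GRCm38.p6, matched by symbol. The alternatives were other hashtag rules, cell filters, floors, folds, scalings (edgeR 4.0.16 TMM factors, R 4.3.3), cluster sets and barcodes that recur between libraries.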

Additional observations from a re-analysis of the deposited data

How the results depend on the processing

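No paired analysis was possible because each gate and hashtag is 1 sample and nothing was tested. Of the recomputed values of the comparisons, 225 stayed within the margin set for them (1.5 times for counts, the interval for shares), 69 moved and 2 were labelled as reversed. This label does not count every change of sign given below. A ratio of chain shares received it only where its first interval left out 1. The ratio of DP cells with a TRB chain, 0.946, turned to 1.01 without low-RNA clusters, a change of side that the label did not count. That with a TRA chain went from 1.02 to 1.08. The Poisson interval of 0.946 includes 1 but is too wide for such large shares, whose own intervals did not overlap. Settings that leave out S phase, low-RNA or interferon-responding clusters, or barcodes that recur between libraries, were chosen after seeing the data. The cause of these moves was not tested beyond what each setting removes.

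Counts of genes past 1.5-fold are given as Hashtag 5 against WT, then Hashtag 5 against I173A, then I173A against WT, for CD4 SP, CD8 SP and DP where they moved by over 1.5 times. A floor of 5 CPM gave 99, 96 and 260, then 149, 332 and 706, then 135, 626 and 961. A floor of 50 CPM gave 5, 17 and 35, then 14, 60 and 149, then 12, 180 and 278. A fold of 2 gave 5, 4 and 7, then 9, 32 and 43, then 6, 72 and 190. Equal cluster shares gave 8, 10 and 21, then 24, 17 and 51, then 24 in the CD8 SP gate and 65 in DP. Without cycling clusters the counts were 17 in the CD8 SP gate and 27 in DP, then 143 in DP, then 83 in the CD8 SP gate and 120 in DP. Leaving out S phase clusters too gave 23 and 44, then 32 and 73, then 22 and 70 in CD8 SP and DP. Means over cells gave 20 in CD8 SP, then 77 in CD8 SP, then 146 and 261 in CD8 SP and DP. Without interferon-responding clusters 16 genes were left between Hashtag 5 and WT in the CD8 SP gate (2 higher, 14 lower), and without low-RNA clusters 49 in DP. The split of higher and lower genes in CD8 SP was 17 and 18 as given, 10 and 7 without cycling clusters, and 12 and 8 by means over cells; in DP it was 33 and 50, 23 and 4 without cycling clusters, and 15 and 6 with equal cluster shares.

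List medians (log2 ratio of Hashtag 5 to WT) moved as follows. Without interferon-responding clusters the interferon-stimulated list was at 0.14 in CD4 SP and 0.15 in the CD8 SP gate, and with equal cluster shares at 0.13 in the CD8 SP gate. The G2/M list was at 0.06, 0.13 and 0.11 in CD4 SP, CD8 SP and DP without cycling clusters, at 0.07, -0.17 and -0.11 with equal cluster shares, at -0.34 in the CD8 SP gate and -0.46 in DP by means over cells, and at -0.66 in DP with TMM factors. The TCR signal response list was at -0.09 in the CD8 SP gate and 0.2 in DP without cycling clusters, at -0.07 in the CD8 SP gate by means over cells, and at 0.1 in DP with equal cluster shares. The ratio of cycling shares in the CD8 SP gate was 0.939 at resolution 0.6 and 0.97 for cycling and S phase cells together, and in DP 0.847 by Mki67 UMIs.

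Of the named genes and segments, 685 values stayed, 105 moved and 17 changed side. Cd74 in CD4 SP was at 0.975 with equal cluster shares and 0.998 without other cell types. Without cycling clusters, ratios were 1.04 for Hist1h2bh, 1.0 for Hist1h4k and 1.05 for Plk1 in the CD8 SP gate, and 1.24 for Mxd3, 1.55 for Pimreg, 1.1 for Plk1 and 1.0 for Sgo2a in DP. Without cycling and S phase clusters they were 1.19 for Depdc1a, 2.46 for Plk1, 1.72 for Sgo2a and 1.35 for Ube2c in the CD8 SP gate, and 1.64 for Mxd3 and 1.01 for Ube2c in DP. Mxd3 in DP was at 1.07 with equal cluster shares, and Slfn5 in the CD8 SP gate at 0.976 without interferon-responding clusters. With 1 sample per group, differences between mice, tagging and cell mix cannot be told apart from the hashtag.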

Other observations

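Other lists gave small differences between Hashtag 5 and WT cells. Cholesterol synthesis genes had median log2 ratios of 0.05 in CD4 SP, -0.08 in the CD8 SP gate and 0.1 in DP, and glycolysis genes -0.01, -0.03 and -0.01, with none past 1.5-fold in either list. Of all genes 0.232%, 0.568% and 1.17% were past 1.5-fold in these gates. In DP 18 of 19 measured genes of maturation and egress were higher, with a median of 0.26 and none past 1.5-fold at 20 CPM or more. Over all genes of DP 61.5% were higher, with a median of 0.05. Gimap3, a GTPase of lymphocyte survival, was at 5.53 CPM in WT, 9.09 in Hashtag 5 and 8.43 in I173A cells of DP. In CD4 SP, S1pr1, the receptor for exit from the thymus, was at 176 CPM in WT and 152 in Hashtag 5 cells, and Klf2, the factor that drives it, at 641 and 572. The median TRAJ segment number was 30 in Hashtag 5, 27 in WT and 28 in I173A cells of CD4 SP, and 31, 34 and 32 in DP.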
